A study of Mus musculus with 28 samples.

Results

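Hippocampal RNA of 5xFAD mice was examined for 10 effector genes of plaque-associated microglia, the state that microglia adopt around amyloid deposits. The genes are Cst7, Itgax, Clec7a, Gpnmb, Spp1, Lgals3, Igf1, Lpl, Cd9 and Cd63. Each symbol matched 1 Ensembl gene ID of the 55487 listed in each of the study's count tables, and all 10 passed the filter on low counts in both cohorts, among 21376 tested genes (Ripk1) and 21274 tested genes (Zbp1). Cst7, Itgax and Clec7a had 0 to 41 counts in every library without the 5xFAD transgenes. Cst7 passed through the carriers, and Itgax lay near the filter's limit without them. Clec7a had 21 to 32 counts in WT of the Ripk1 cohort and 16 to 39 in WT of the Zbp1 cohort, enough to pass without carriers.

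Bulk polyadenylated RNA was sequenced from the hippocampus of mice 9 months of age, killed after behavioural tests. The Ripk1 cohort held mice homozygous for Ripk1 D138N that carried 5xFAD (Ripk1 D138N 5xFAD), 5xFAD mice, Ripk1 D138N mice and WT mice. The Zbp1 cohort held Zbp1-/- mice that carried 5xFAD (Zbp1 KO 5xFAD), 5xFAD mice, Zbp1-/- mice (Zbp1 KO) and WT mice, and each cohort had WT mice of its own ancestry. There were 3 libraries per genotype, 24 in all, and 4 libraries of a ZBP1 RNA immunoprecipitation (RIP) from 5xFAD and WT hippocampus, 1 per group. 5xFAD is a model in which neurons express human transgenes with mutations of familial Alzheimer's disease, APP among them, from the Thy1 promoter, so that amyloid deposits early. D138N removes the kinase activity of RIPK1, and ZBP1 is a sensor of Z-form nucleic acids that engages RIPK1 and RIPK3. Separate animals behind the 3 libraries of a group are not stated in the labels, and the p-values therefore cover only library-to-library spread, which may be technical.

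In the mouse, microglia near plaques lower part of their homeostatic programme and, with signalling through TREM2 and TYROBP, switch on genes for phagocytosis, lysosomes and lipid handling. The products of the 10 genes act at different places. Clec7a encodes Dectin-1, a receptor for beta-glucans, and Itgax the integrin CD11c. Cst7 encodes cystatin F, an inhibitor of lysosomal cysteine proteases. Gpnmb encodes a transmembrane glycoprotein of lysosomes and the cell surface. Spp1 (osteopontin), Lgals3 (galectin-3) and Igf1 (insulin-like growth factor 1) encode secreted proteins. Lpl encodes lipoprotein lipase, which releases fatty acids from lipoproteins, and Cd9 and Cd63 encode tetraspanins of the surface and of late endosomes. Neurons also express Lpl, and oligodendrocytes and other brain cells also express Cd9 and Cd63.

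The promoters of genes that move together are shown first, since PU.1 and AP-1 family factors are known regulators in macrophages. RefSeq (GRCm38.p6) gave 11 promoter entries for 9 of the 10 genes, and Lpl was not matched. The 250 bases before each start were searched on both strands for AGGAAGT (PU.1), TGANTCA (AP-1) and CACGTG (the E-box bound by the MiT family). AGGAAGT was found for Cst7 and for 1 of the 2 Spp1 entries, its first base 63 and 112 bases before the start, and 7.69% of 32851 promoters held it. TGANTCA was found for Itgax (as TGAGTCA) and Igf1 (as TGAATCA), 56 and 37 bases before the start, and 6.75% of all promoters held it. The search and this share took any base at N. The AP-1 site has C or G there, which the Itgax match holds and the Igf1 match does not. CACGTG was in none of the 11 entries and in 6.02% of all promoters. A match shows only that these letters occur. The gene starts listed by RefSeq were chr10:87858265 for Igf1 and chr7:128129526 for Itgax. The Igf1 window thus lies inside the gene, and the Itgax window runs past the listed gene start. The windows below lie on the + strand at chr2:150570165-150570414 (Cst7), chr5:104434861-104435110 (Spp1), chr7:128129300-128129549 (Itgax) and chr10:87860861-87861110 (Igf1), and capitals mark the match.
Cst7: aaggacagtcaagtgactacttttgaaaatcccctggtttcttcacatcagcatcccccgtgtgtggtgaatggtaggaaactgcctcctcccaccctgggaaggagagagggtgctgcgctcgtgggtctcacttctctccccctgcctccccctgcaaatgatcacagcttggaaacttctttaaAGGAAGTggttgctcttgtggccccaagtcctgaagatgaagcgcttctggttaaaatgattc
Spp1: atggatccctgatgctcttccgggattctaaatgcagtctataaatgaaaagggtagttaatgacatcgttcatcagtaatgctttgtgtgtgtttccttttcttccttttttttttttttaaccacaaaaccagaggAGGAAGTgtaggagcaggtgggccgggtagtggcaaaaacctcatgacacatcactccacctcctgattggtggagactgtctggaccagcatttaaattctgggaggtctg
Itgax: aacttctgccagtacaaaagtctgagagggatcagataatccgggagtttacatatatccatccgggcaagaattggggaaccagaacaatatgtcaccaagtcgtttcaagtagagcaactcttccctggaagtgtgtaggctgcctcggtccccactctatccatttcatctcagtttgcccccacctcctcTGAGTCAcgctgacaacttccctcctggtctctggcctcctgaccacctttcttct
Igf1: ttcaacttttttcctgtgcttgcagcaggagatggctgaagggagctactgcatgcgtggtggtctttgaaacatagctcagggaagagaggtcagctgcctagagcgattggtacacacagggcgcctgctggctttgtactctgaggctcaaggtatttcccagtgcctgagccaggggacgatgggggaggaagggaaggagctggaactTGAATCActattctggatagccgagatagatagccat

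Libraries held 16624325 to 44801371 counts in the Ripk1 cohort and 8362348 to 34640479 in the Zbp1 cohort, where WT 1 was the shallowest. Levels are CPM, the counts scaled to library size with TMM. Thy1, whose promoter drives the transgenes, ran at 1462 to 2739.6 CPM in the 12 carrier libraries and at 513 to 662 CPM in the other 12, so that each carrier label held. Zbp1 had 11, 9 and 9 counts in Zbp1 KO 5xFAD, against 52, 52 and 125 counts in 5xFAD of that cohort, and 0, 0 and 11 counts in Zbp1 KO, against 0, 12 and 3 counts in WT. The deleted part of Zbp1 is not given in the labels, and Ripk1 counts cannot check a point mutation. Zbp1 fell in Ripk1 D138N 5xFAD against 5xFAD (-2.51 ± 0.34, log2, edgeR, adjusted p = 0.00537). A library of the Zbp1 cohort stood apart among WT. WT 1 had 4.70 CPM of Cst7, 4.34 of Itgax and 4.70 of Clec7a (39, 36 and 39 counts), against 0.128 to 0.535 CPM of the same genes in WT 2 and WT 3. Its levels of Gpnmb, Spp1, Lpl and Igf1 were 1.01 to 1.13 times the mean of the other WT libraries, its Lgals3 was 1.46 times that mean, and its Cd9 (0.628 times) and Cd63 (0.442 times) lay below both of them. Among the 5xFAD libraries of the same cohort, 5xFAD 3 was the lowest for 7 of the 10 genes and had the least Thy1, at 1462 CPM.

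5xFAD hippocampus had more RNA of all 10 genes than WT hippocampus, in both cohorts. Among the Ripk1 mice 10 of 10 rose by edgeR's quasi-likelihood test (Benjamini-Hochberg adjusted p under 0.05), where 8.11% of all genes tested were called higher and 8.02% lower. Among the Zbp1 mice 10 of 10 rose as well, where 3% of all genes were called higher and 0.127% lower. Cst7 had to differ to be tested at all, and Itgax nearly so. The 5xFAD and WT libraries did not overlap for any of the 10 genes, a state that 17.7% of all genes reached upwards and 17.1% downwards in the Ripk1 cohort, and 8.28% upwards and 5.4% downwards in the Zbp1 cohort. The median log2 fold change of the 10 genes was 2.34 (Ripk1 cohort) and 2.29 (Zbp1 cohort), beside 0.0182 and -0.00439 over all genes. In bulk tissue, fewer cells of a type and less RNA per cell cannot be told apart, and the same holds for more cells and more RNA.

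**Figure D1:**
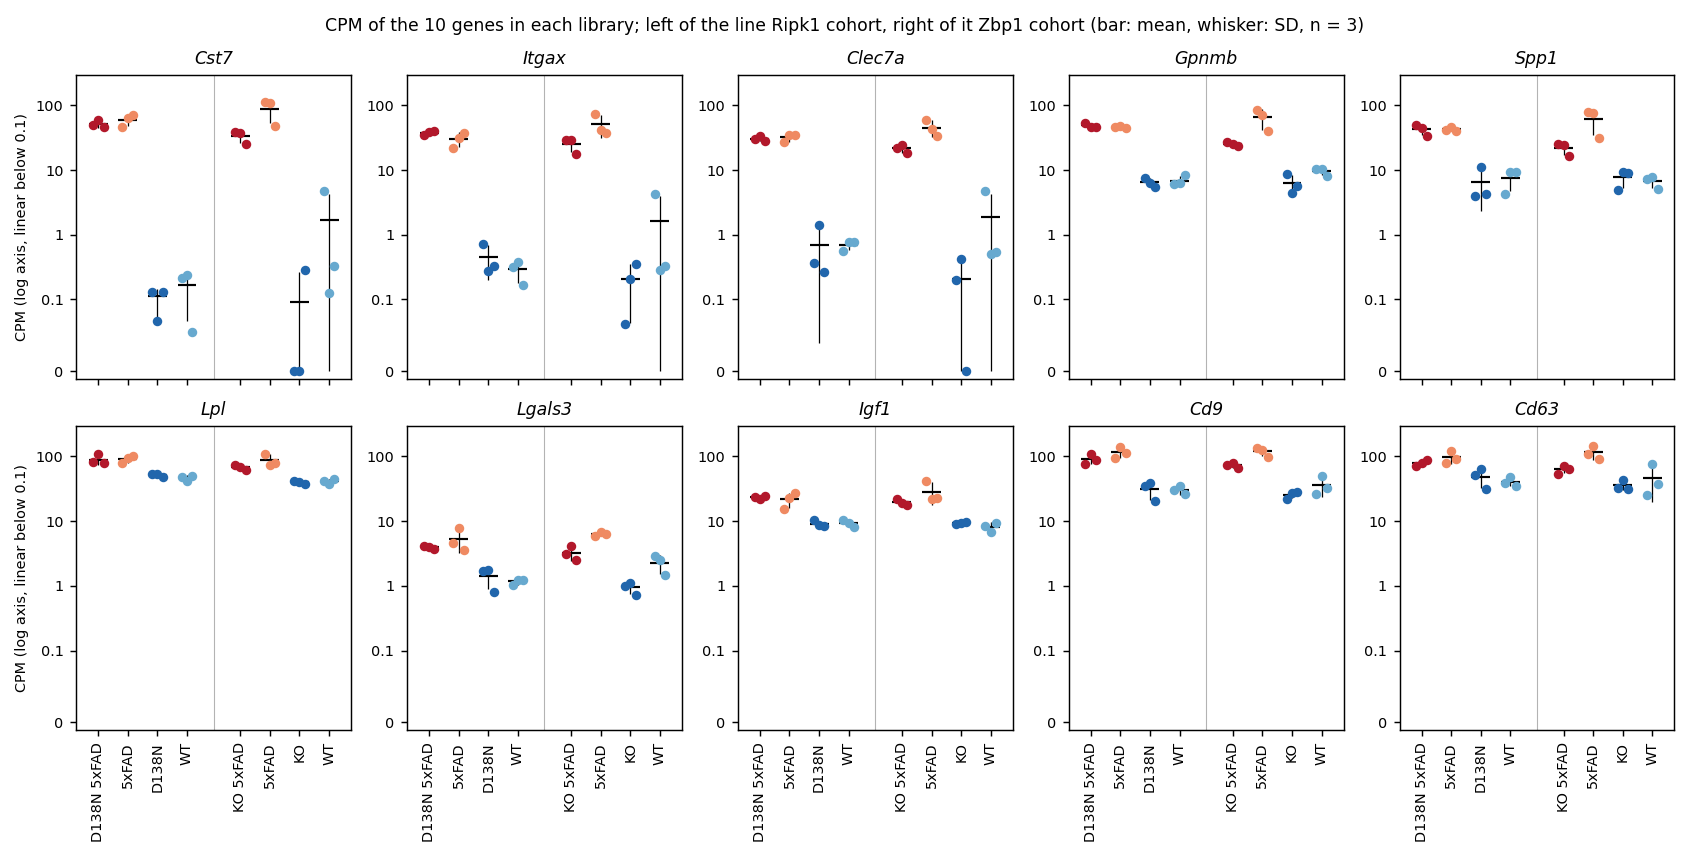
CPM of the 10 genes in each of the 24 hippocampal libraries, on a log axis that is linear below 0.1, with mean and SD of 3 libraries per genotype. Carrier libraries lie above the non-carrier libraries of their cohort for every gene but Cd63 and Lgals3 in the Zbp1 cohort, where WT 2 (77.5 CPM of Cd63) lies above the 3 Zbp1 KO 5xFAD libraries and WT 1 (2.89 CPM of Lgals3) lies above Zbp1 KO 5xFAD 3 (2.55 CPM), and WT 1 of the Zbp1 cohort stands at 4.70 CPM of Cst7.

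The protease inhibitor and both surface receptors were close to silent without the transgenes. Cst7 was at 46.6, 63.9 and 71.0 CPM in 5xFAD, against 0.215, 0.241 and 0.0551 CPM in WT of the Ripk1 cohort, a log2 fold change of 8.42 ± 0.28 (SE, edgeR, adjusted p = 2.55e-09). In the Zbp1 cohort it was at 111, 107 and 48.6 CPM in 5xFAD, against 4.70, 0.128 and 0.334 CPM in WT (6.54 ± 0.79, edgeR, adjusted p = 2.04e-04). The lowest 5xFAD library of that cohort lay above the highest WT library, and the estimate was 8.58 without WT 1.

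Itgax was at 22.3, 31.7 and 37.8 CPM in 5xFAD, against 0.322, 0.386 and 0.165 CPM in WT of the Ripk1 cohort (6.69 ± 0.31, edgeR, adjusted p = 3.70e-08). Zbp1-cohort Itgax was at 73.6, 41.9 and 37.5 CPM in 5xFAD, against 4.34, 0.287 and 0.334 CPM in WT (5.64 ± 0.71, edgeR, adjusted p = 2.58e-04, and 7.34 without WT 1). The integrin gene was low in each WT library but WT 1. Clec7a was at 26.9, 34.9 and 35.4 CPM in 5xFAD, against 0.563, 0.771 and 0.772 CPM in WT of the Ripk1 cohort (5.52 ± 0.36, edgeR, adjusted p = 4.53e-07). Its levels in the Zbp1 cohort were 59.4, 43.1 and 33.3 CPM in 5xFAD, against 4.70, 0.511 and 0.535 CPM in WT (5.10 ± 0.66, edgeR, adjusted p = 3.59e-04, and 6.42 without WT 1). The difference between cohorts in the 5xFAD effect was 1.84 ± 1.08 for Cst7, 1.0 ± 0.88 for Itgax and 0.38 ± 0.79 for Clec7a (Ripk1 cohort minus Zbp1 cohort, edgeR over 24 libraries, adjusted p = 0.630, 0.775 and 0.927), and without WT 1 each turned negative (-0.17, -0.66 and -0.91).

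Gpnmb and Spp1 were measurable in WT and rose several-fold in 5xFAD. Gpnmb was at 46.8, 47.3 and 44.6 CPM in 5xFAD, against 6.09, 6.31 and 8.27 CPM in WT of the Ripk1 cohort (2.75 ± 0.14, edgeR, adjusted p = 6.65e-08). In the Zbp1 cohort Gpnmb was at 86.1, 70.0 and 40.4 CPM in 5xFAD, against 10.4, 10.3 and 8.09 CPM in WT (2.78 ± 0.27, edgeR, adjusted p = 3.76e-05). The difference between the cohorts in the Gpnmb effect was -0.05 ± 0.31 (95% interval -0.69 to 0.60). Spp1 was at 41.7, 46.7 and 40.7 CPM in 5xFAD, against 4.26, 9.47 and 9.23 CPM in WT of the Ripk1 cohort (2.49 ± 0.36, edgeR, adjusted p = 4.94e-04). Its Zbp1 cohort levels were 77.9, 77.7 and 30.9 CPM in 5xFAD, against 7.36, 7.95 and 5.05 CPM in WT (3.21 ± 0.36, edgeR, adjusted p = 1.01e-04). The groups were apart, and 5xFAD 3 held 0.397 times the mean Spp1 of the other 5xFAD libraries.

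Lgals3 and Igf1, the other secreted factors, rose by smaller amounts. Lgals3 was at 4.6, 7.71 and 3.65 CPM in 5xFAD, against 1.02, 1.25 and 1.24 CPM in WT of the Ripk1 cohort (2.18 ± 0.32, edgeR, adjusted p = 5.97e-04). For the Zbp1 cohort Lgals3 was at 5.89, 6.76 and 6.36 CPM in 5xFAD, against 2.89, 2.49 and 1.47 CPM in WT (1.51 ± 0.30, edgeR, adjusted p = 0.0109, 0.0629 without WT 3, and 5.21e-05 to 0.0629 over 19 alternatives). 5xFAD 3, the lowest carrier for 7 genes, was in the middle of its group for Lgals3. Igf1 was at 15.3, 22.6 and 27.1 CPM in 5xFAD, against 10.4, 9.30 and 8.02 CPM in WT of the Ripk1 cohort (1.24 ± 0.18, edgeR, adjusted p = 4.73e-04). Igf1 levels in the Zbp1 cohort were 41.7, 21.8 and 22.8 CPM in 5xFAD, against 8.56, 6.87 and 9.40 CPM in WT (1.80 ± 0.23, edgeR, adjusted p = 3.24e-04).

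The lipase and the tetraspanins were well above 0 in WT hippocampus, and Lpl gave the smallest change of the 10 genes in both cohorts. Lpl was at 79.2, 93.1 and 100.5 CPM in 5xFAD, against 47.7, 41.9 and 50.5 CPM in WT of the Ripk1 cohort (0.96 ± 0.13, edgeR, adjusted p = 2.31e-04), and at 111, 73.9 and 78.6 CPM in 5xFAD, against 41.7, 37.8 and 45.1 CPM in WT of the Zbp1 cohort (1.08 ± 0.14, edgeR, adjusted p = 4.07e-04). Cd9 was at 95.4, 141 and 115 CPM in 5xFAD, against 30.4, 35.5 and 25.9 CPM in WT of the Ripk1 cohort (1.94 ± 0.22, edgeR, adjusted p = 5.47e-05). Its Zbp1 cohort levels were 137, 127 and 97.9 CPM in 5xFAD, against 25.9, 49.5 and 33.1 CPM in WT (1.72 ± 0.19, edgeR, adjusted p = 1.21e-04). For Cd63 the groups lay closest in the Zbp1 cohort, relative to its level. It was at 80.2, 120.2 and 91.1 CPM in 5xFAD, against 39.1, 47.8 and 35.4 CPM in WT of the Ripk1 cohort (1.25 ± 0.22, edgeR, adjusted p = 0.00197). Cd63 in the Zbp1 cohort was at 111, 146 and 91.1 CPM in 5xFAD, against 25.6, 77.5 and 38.1 CPM in WT (1.28 ± 0.30, edgeR, adjusted p = 0.0284), with adjusted p = 0.0691, 0.0509, 0.0943 and 0.151 without 5xFAD 1, 5xFAD 2, WT 1 or WT 3 (3.88e-19 to 0.170 over 19 alternatives). Oligodendrocyte markers, whose cells also express Cd9 and Cd63, were called higher for 5 of 9 genes in the Ripk1 cohort (Mag, Mobp, Cldn11, Opalin and, named after its values were seen, Mbp at 0.47 ± 0.14, summed 6446 to 8037 CPM in 5xFAD, against 4981 to 5834 CPM in WT) and for 0 of 9 in the Zbp1 cohort (6548 to 6871 CPM in 5xFAD, against 4724 to 6793 CPM in WT). Their part in the Cd9 and Cd63 results was not tested.

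**Figure D2:**
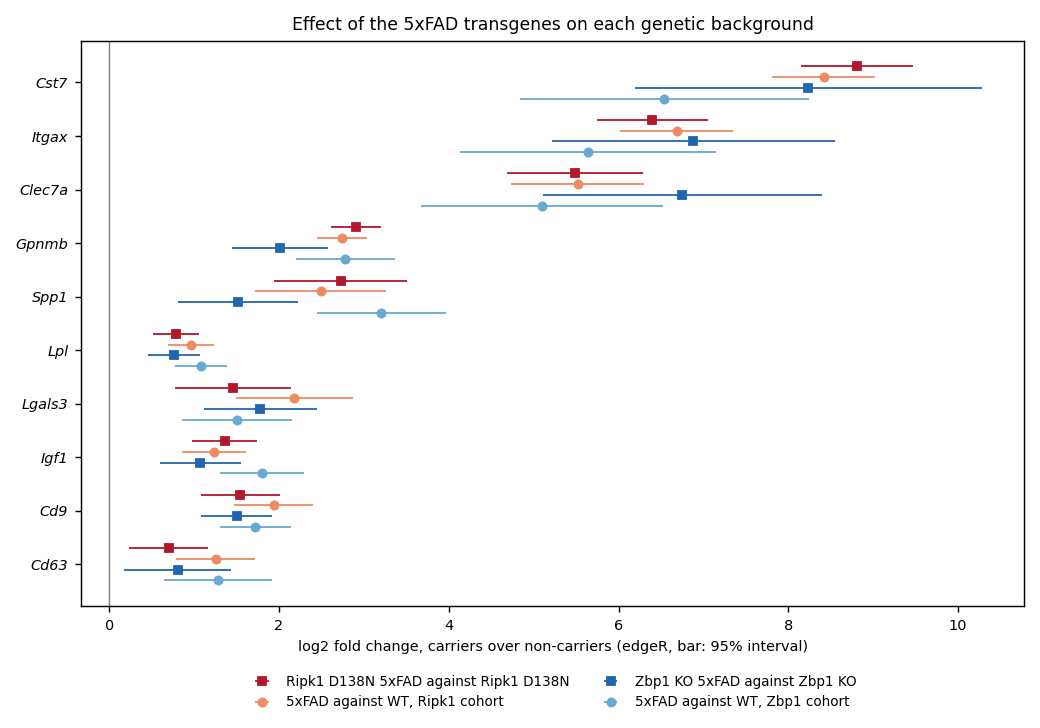
Log2 fold change of carriers over non-carriers from edgeR with 95% intervals, on the mutant and WT backgrounds of both cohorts. The estimates for Cst7 run from 6.54 to 8.81 and those for Lpl from 0.76 to 1.08.

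Microglial genes outside the set moved in the same direction. Of 9 genes that microglia express in every state (Csf1r, Aif1, Itgam, Laptm5, Ptprc, Cd33, Irf8, Spi1 and Fcer1g), 9 rose in 5xFAD in each cohort, with medians of 2.05 and 1.62. Csf1r, the receptor that microglia need to survive, gave 1.34 ± 0.09 and 1.51 ± 0.16. Of 24 other genes of the plaque-associated state, 22 rose among Ripk1 mice (median 1.67) and 19 among Zbp1 mice (median 1.72). Trem2 gave 3.26 ± 0.17 and 3.23 ± 0.24, its adaptor Tyrobp 3.20 ± 0.20 and 2.95 ± 0.33, and the lipid carrier Apoe 1.13 ± 0.13 and 1.03 ± 0.19 (Ripk1 and Zbp1 cohort, each called by edgeR). The chemokine Ccl3 gave 5.29 ± 0.38 and 3.41 ± 0.65. Of 12 homeostatic microglial genes, 11 rose among Ripk1 mice and 9 among Zbp1 mice, with medians of 1.2 and 1.425 and none called lower. Markers of border-associated macrophages were called for 0 of 8 and 0 of 7 genes tested (edgeR), and their summed level was 29.4 to 33.7 CPM in 5xFAD, against 30.0 to 34.3 CPM in WT of the Ripk1 cohort, and 27.9 to 34.8 CPM in 5xFAD, against 26.3 to 32.3 CPM in WT of the Zbp1 cohort. Markers of blood monocytes and neutrophils were called higher for 1 of 6 genes tested (Ly6c2) among Ripk1 mice and 0 of 4 among Zbp1 mice, with a summed level of at most 6.37 CPM in any library.

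Set against the shared microglial genes, the 10 genes differed widely. The geometric mean of those 9 shared genes was 36.6 ± 1.26 CPM in 5xFAD and 9.24 ± 1.26 CPM in WT of the Ripk1 cohort, and 38.5 ± 11.6 CPM in 5xFAD and 10.4 ± 0.401 CPM in WT of the Zbp1 cohort (SD, n = 3 each). Per unit of that mean, 5xFAD libraries held 85.4 times the Cst7 of WT libraries in the Ripk1 cohort, 25.5 times the Itgax and 11.4 times the Clec7a. For the Zbp1 cohort these ratios were 14.0, 8.41 and 6.50, or 99.1, 43.1 and 23.02 without WT 1. Gpnmb and Spp1 were modestly above the shared genes, at 1.69 and 1.37 in the Ripk1 cohort and 1.82 and 2.42 in the Zbp1 cohort. For Spp1 the ratios of 5xFAD and WT libraries overlapped in the Ripk1 cohort. Lgals3 was at 1.12 and 0.805, and Cd9 at 0.938 and 0.923, and for both genes the 5xFAD and WT libraries overlapped in each cohort. Igf1 (0.585 and 0.931), Cd63 (0.583 and 0.692) and Lpl (0.490 and 0.584) had a lower mean per unit of the shared genes in 5xFAD than in WT. In the Zbp1 cohort the ratios of 5xFAD and WT libraries overlapped for Igf1 (0.577 to 0.838 against 0.652 to 0.950) and Cd63 (2.20 to 3.88 against 2.40 to 7.36). These ratios are descriptions with no test. Other brain cells also express Lpl, Cd9 and Cd63, so their ratios, here and below, are not levels per microglial cell.

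**Figure D3:**
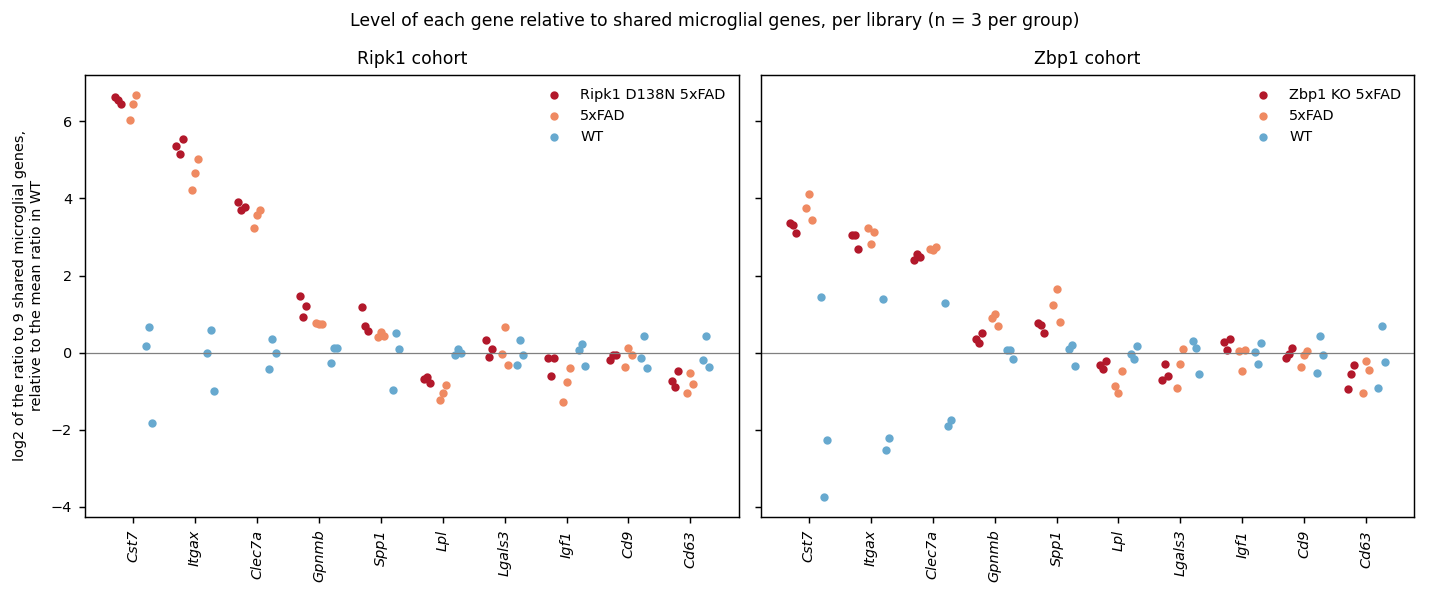
Level of each gene divided by the geometric mean of 9 shared microglial genes in the same library, as log2 relative to the WT mean of the cohort. Cst7, Itgax and Clec7a lie well above 0 in all carriers, Lpl lies below 0, and WT 1 of the Zbp1 cohort lies above the other WT libraries for the first 3 genes.

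The transgene effect was also measured within each mutant background. Cst7 passed the filter on low counts through the carriers, and Itgax lay near its limit without them. In the counts below, both genes therefore cannot be set beside the shares over all genes. In Ripk1 D138N 5xFAD against Ripk1 D138N, 9 of 10 genes rose by edgeR, where 3.12% of all genes were called higher and 0.257% lower, and the libraries did not overlap for 10 of 10 (11.3% of all genes upwards, 7.87% downwards). The log2 fold changes were 6.40 for Itgax, 5.49 for Clec7a, 2.91 for Gpnmb, 2.72 for Spp1, 1.46 for Lgals3, 1.36 for Igf1, 0.79 for Lpl and 1.54 for Cd9. Cd63 was at 70.2, 79.9 and 87.5 CPM in Ripk1 D138N 5xFAD, against 52.0, 63.5 and 31.0 CPM in Ripk1 D138N (0.70 ± 0.21, edgeR, adjusted p = 0.114), and did not pass. It passed without a filter on low counts (edgeR, adjusted p = 5.68e-04), with the replicate block (0.0440) and without Ripk1 D138N 2 (0.0371). Lgals3 no longer passed without Ripk1 D138N 3 (0.0783) or without any single Ripk1 D138N 5xFAD library (0.0504 to 0.0600), so that the count of 9 ran from 8 to 10. Cst7 was at 50, 60.2 and 45.7 CPM in Ripk1 D138N 5xFAD, against 0.132, 0.0699 and 0.133 CPM in Ripk1 D138N (8.81 ± 0.31, edgeR, adjusted p = 4.34e-09). In Zbp1 KO 5xFAD against Zbp1 KO, 9 of 10 rose, where 1.18% of all genes were called higher and 0.0423% lower, and 10 of 10 did not overlap (10.8% of all genes upwards, 10.6% downwards). There the log2 fold changes were 6.88 for Itgax, 6.75 for Clec7a, 2.01 for Gpnmb, 1.52 for Spp1, 1.78 for Lgals3, 1.07 for Igf1, 0.76 for Lpl and 1.5 for Cd9. Cd63 was again the gene that did not pass (0.81 ± 0.30, edgeR, adjusted p = 0.397). It passed without a filter (edgeR, adjusted p = 2.56e-07), with the replicate block (0.0466) and on the 2 groups alone (0.00191). Cst7 had 1207, 1037 and 757 counts in Zbp1 KO 5xFAD, against 0, 0 and 10 counts in Zbp1 KO. With a single library left out, the Zbp1 KO count of 9 was 5 without Zbp1 KO 1, Zbp1 KO 3 or Zbp1 KO 5xFAD 2, and 6 without Zbp1 KO 2 or Zbp1 KO 5xFAD 1.

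Whether loss of RIPK1 kinase activity alters the effector genes in carriers was asked with Ripk1 D138N 5xFAD against 5xFAD. None of the 10 genes passed edgeR's test, 0 passed DESeq2, and the libraries overlapped for 10 of 10. An unadjusted p under 0.05 was reached by 0 of the 10, beside 2621 of all 21376 genes. Over all genes tested, 0.0234% were called higher and 0.342% lower, and 7.4% had libraries apart upwards and 7.73% downwards. The log2 fold changes ran from -0.43 (Lgals3) to 0.31 (Itgax), with a median of -0.05 beside -0.01 over all genes. Gpnmb was at 53.4, 47.0 and 46.6 CPM in Ripk1 D138N 5xFAD, against 46.8, 47.3 and 44.6 CPM in 5xFAD (0.09 ± 0.13, 95% interval -0.18 to 0.36). Spp1 was at 49.9, 45.2 and 34.0 CPM in Ripk1 D138N 5xFAD, against 41.7, 46.7 and 40.7 CPM in 5xFAD (95% interval -0.72 to 0.72). Both glycoprotein genes overlapped between the groups. Cst7 was at 50, 60.2 and 45.7 CPM in Ripk1 D138N 5xFAD, against 46.6, 63.9 and 71.0 CPM in 5xFAD (95% interval -0.59 to 0.14).

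The remaining genes of that comparison had intervals that included 0 as well. Itgax was at 35.0, 38.5 and 40.9 CPM in Ripk1 D138N 5xFAD, against 22.3, 31.7 and 37.8 CPM in 5xFAD (-0.14 to 0.77). Clec7a was at 30.2, 33.4 and 28.4 CPM in Ripk1 D138N 5xFAD, against 26.9, 34.9 and 35.4 CPM in 5xFAD (-0.68 to 0.51). Both receptor genes overlapped between the groups. Lgals3 was at 4.18, 3.92 and 3.71 CPM in Ripk1 D138N 5xFAD, against 4.6, 7.71 and 3.65 CPM in 5xFAD (-1.08 to 0.21). Igf1 was at 24, 21.8 and 24.5 CPM in Ripk1 D138N 5xFAD, against 15.3, 22.6 and 27.1 CPM in 5xFAD (-0.26 to 0.48). The secreted factors overlapped between the groups. The intervals were -0.29 to 0.25 for Lpl, -0.81 to 0.08 for Cd9 and -0.75 to 0.16 for Cd63. The geometric mean of the shared microglial genes was 28.5 ± 3.81 CPM in Ripk1 D138N 5xFAD and 36.6 ± 1.26 CPM in 5xFAD, and 0 of those 9 genes passed edgeR's test (median -0.36). Of the 24 other plaque-associated genes 1 fell (median -0.21), B2m (-1.07 ± 0.20, named after its values were seen), the light chain of MHC class I molecules. Thy1 was at 1723, 2251 and 1612 CPM in Ripk1 D138N 5xFAD, against 2739.6, 2295 and 2389 CPM in 5xFAD (-0.41 ± 0.12, not called). Its part in these values was not tested beyond the fit with Thy1 as a covariate, which gave -0.71 for Lgals3, -0.65 for Cd63, 0.16 for Lpl and -0.26 for Igf1, against -0.43, -0.30, -0.0237 and 0.11 without the covariate, and called 0 of the 10 genes either way.

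Without the transgenes, Ripk1 D138N against WT gave 0 of 10 called by edgeR, where 0% of all genes were called in either direction. An unadjusted p under 0.05 was reached by 0 of the 10, beside 514 of all 21376 genes. The libraries overlapped for 10 of 10, where 3.58% of all genes had libraries apart upwards and 4.12% downwards. DESeq2 also called 0 of the 10. The interaction, the transgene effect on the Ripk1 D138N background minus that on the WT background, ran from -0.72 (Lgals3) to 0.39 (Cst7). It was called for 0 of 10 genes by edgeR and 0 by DESeq2, and edgeR called 0% of all genes higher and 0.0281% lower. An unadjusted p under 0.05 was reached by 0 of the 10, beside 1596 of all 21376 genes.

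Zbp1 KO 5xFAD against 5xFAD asks the same of ZBP1, and there all 10 estimates were below 0. By edgeR 0 of 10 genes passed, as did 0 of all 21274 genes (0% called lower). An unadjusted p under 0.05 was reached by 8 of 10, beside 1875 of all 21274 genes. The Zbp1 KO 5xFAD libraries lay below every 5xFAD library for 9 of 10 genes, where 7.89% of all genes did so and 6.4% lay above, and of the 10 only Igf1 overlapped. The median log2 fold change was -0.97, beside -0.01 over all genes. DESeq2 called Gpnmb, Spp1 and Cd9 lower (3 of 10), where it called 148 genes lower and 3 higher in all.

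Gpnmb and Spp1 had the lowest adjusted p of the 10. Gpnmb was at 26.9, 25.1 and 23.5 CPM in Zbp1 KO 5xFAD, against 86.1, 70.0 and 40.4 CPM in 5xFAD, a log2 fold change of -1.38 ± 0.25 (edgeR, adjusted p = 0.121). Spp1 was at 25.4, 24.5 and 16.5 CPM in Zbp1 KO 5xFAD, against 77.9, 77.7 and 30.9 CPM in 5xFAD (-1.49 ± 0.32, edgeR, adjusted p = 0.182). For both genes the 3 Zbp1 KO 5xFAD libraries were close together and the 5xFAD libraries were spread, with 5xFAD 3 nearest to the mutant. Without 5xFAD 3 both were called by edgeR, at -1.63 for Gpnmb (adjusted p = 0.00390) and -1.81 for Spp1 (adjusted p = 0.00689). Calls over all genes in that fit are not given here. Over 20 alternatives the adjusted p ran from 4.60e-13 to 1.0 for Gpnmb and from 1.97e-14 to 1.0 for Spp1. In the authors' deposited table, which gives 5xFAD over Zbp1 KO 5xFAD, Gpnmb was at 1.38 (adjusted p = 2.39e-05) and Cd9 at 0.73 (adjusted p = 0.0342). Spp1 was at 1.49 (adjusted p = 0.0562) and Lgals3 at 0.96 (adjusted p = 0.0628). The table marked Gpnmb, Cd9, Spp1 and Lgals3 as up and the other members as not. It listed Cst7 at 1.41 with an adjusted p of 0.618.

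Cst7 was at 38.5, 36.9 and 25.1 CPM in Zbp1 KO 5xFAD, against 111, 107 and 48.6 CPM in 5xFAD (-1.41 ± 0.55, edgeR, adjusted p = 0.526). Itgax was at 29.7, 29.6 and 17.8 CPM in Zbp1 KO 5xFAD, against 73.6, 41.9 and 37.5 CPM in 5xFAD (-0.99 ± 0.51, edgeR, adjusted p = 0.597). Clec7a was at 22.1, 24.5 and 18.1 CPM in Zbp1 KO 5xFAD, against 59.4, 43.1 and 33.3 CPM in 5xFAD (-1.07 ± 0.51, edgeR, adjusted p = 0.566). The groups of these 3 genes were apart, with the widest intervals of the set, and Itgax and Clec7a were the 2 genes that missed an unadjusted p of 0.05. Lgals3 was at 3.09, 4.13 and 2.55 CPM in Zbp1 KO 5xFAD, against 5.89, 6.76 and 6.36 CPM in 5xFAD (-0.96 ± 0.29, edgeR, adjusted p = 0.439). Igf1 was at 22.2, 19.4 and 18.1 CPM in Zbp1 KO 5xFAD, against 41.7, 21.8 and 22.8 CPM in 5xFAD (-0.53 ± 0.22, edgeR, adjusted p = 0.526). Igf1 overlapped through Zbp1 KO 5xFAD 1 and 5xFAD 2.

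Lpl was at 73.2, 69.1 and 61.5 CPM in Zbp1 KO 5xFAD, against 111, 73.9 and 78.6 CPM in 5xFAD (-0.37 ± 0.14, edgeR, adjusted p = 0.524), a margin of under 1 CPM between the closest libraries. Cd9 was at 73.0, 78.1 and 67 CPM in Zbp1 KO 5xFAD, against 137, 127 and 97.9 CPM in 5xFAD (-0.73 ± 0.19, edgeR, adjusted p = 0.286). Cd63 was at 54.2, 71.0 and 64.2 CPM in Zbp1 KO 5xFAD, against 111, 146 and 91.1 CPM in 5xFAD (-0.88 ± 0.29, edgeR, adjusted p = 0.500). Both tetraspanin genes were apart between the groups. As a share of the 5xFAD mean, Zbp1 KO 5xFAD libraries held 35.6% of Spp1, 37.6% of Cst7 and 38.4% of Gpnmb at the low end and 77.4% of Lpl at the high end. The geometric mean of the shared microglial genes was 21.2 ± 2.98 CPM in Zbp1 KO 5xFAD and 38.5 ± 11.6 CPM in 5xFAD, and 0 of those 9 genes passed edgeR's test (median -0.89). Nor did any of the 24 other plaque-associated genes (median -0.81) or the 12 homeostatic genes (median -0.88) pass it, with 1875 of all 21274 genes at an unadjusted p under 0.05. Per unit of that mean, Zbp1 KO 5xFAD over 5xFAD was 0.655 for Spp1, 0.687 for Cst7 and 0.711 for Gpnmb, 0.861 to 1.07 for Clec7a, Lgals3, Itgax, Cd63 and Cd9, 1.26 for Igf1 and 1.37 for Lpl. The summed border-associated macrophage markers were 29.4 to 37.4 CPM in Zbp1 KO 5xFAD, against 27.9 to 34.8 CPM in 5xFAD. Thy1 was at 1583, 1485 and 1468 CPM in Zbp1 KO 5xFAD, against 2159, 2039.8 and 1462 CPM in 5xFAD (-0.32 ± 0.13, not called), and its part was not tested beyond the fit with Thy1 as a covariate. That fit called 0 of the 10 genes as before and left all 10 estimates below 0 but nearer to it, at -0.60 for Cst7, -0.43 for Itgax, -0.49 for Clec7a, -0.87 for Gpnmb, -0.64 for Spp1, -0.79 for Lgals3, -0.32 for Igf1, -0.27 for Lpl, -0.47 for Cd9 and -0.53 for Cd63.

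**Figure D4:**
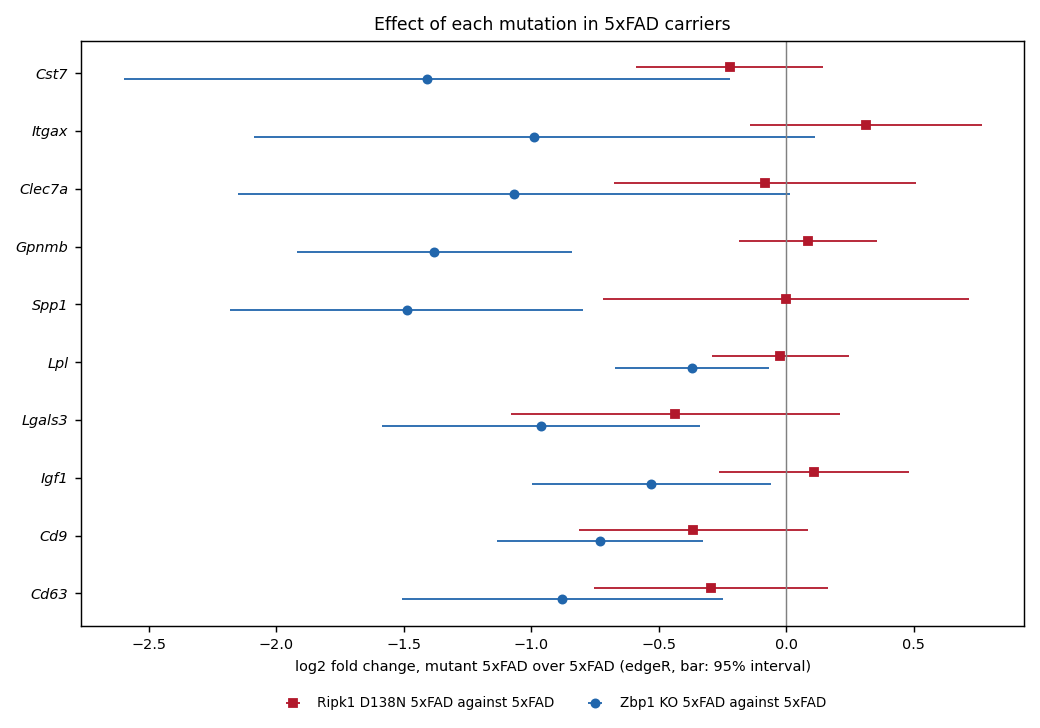
Log2 fold change of mutant 5xFAD over 5xFAD from edgeR with 95% intervals, for both mutations. The estimates for Zbp1 KO lie between -1.49 (Spp1) and -0.37 (Lpl), and those for Ripk1 D138N lie between -0.43 and 0.31.

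Zbp1 KO against WT gave 0 of 10 called by edgeR, with 6 of 10 at an unadjusted p under 0.05 (779 of all 21274 genes) and 0 by DESeq2, where 0% of all genes were called. The libraries did not overlap, in the lower direction, for Clec7a and Lgals3, where 5.57% of all genes did so and 6.21% lay above. Lgals3 was at 0.995, 1.12 and 0.725 CPM in Zbp1 KO, against 2.89, 2.49 and 1.47 CPM in WT (-1.23 ± 0.32, edgeR, adjusted p = 0.942). Clec7a was at 0.199, 0.421 and 0 CPM in Zbp1 KO, against 4.70, 0.511 and 0.535 CPM in WT (-2.72 ± 0.92, or -1.40 without WT 1). Cst7 gave -3.11 ± 1.36, or -1.07 without WT 1, and Itgax -2.23 ± 0.99, or -0.53. The interaction with Zbp1 KO was called for 0 of 10 genes by edgeR, with 2 at an unadjusted p under 0.05 (480 of all 21274 genes) and 0 by DESeq2, where 0% of all genes were called. Spp1 had the lowest p of the 10, at -1.69 ± 0.47 (edgeR, adjusted p = 1.0), and Igf1 was at -0.73 ± 0.32. For Cst7 the interaction was 1.70 ± 1.52 with all libraries and ran from -0.34 to 6.36 when single libraries were left out, the highest without Zbp1 KO 3, where the other Zbp1 KO libraries had 0 counts.

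The effect of Ripk1 D138N in carriers minus that of Zbp1 KO in carriers was above 0 for 10 of 10 genes, with a median of 0.82 beside 0.04 over all genes. None was called by edgeR over 22565 genes (0% called), 4 had an unadjusted p under 0.05 (1064 of all 22565 genes), and DESeq2 called 1. The calls of DESeq2 over all genes are not given for this difference. Gpnmb differed by 1.47 ± 0.30 (edgeR, adjusted p = 0.524) and Spp1 by 1.5 ± 0.51 (edgeR, adjusted p = 0.990). Cohort and mutation cannot be told apart in this difference.

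Other genes followed the members' profiles over the genotypes to different degrees. Likeness was the root mean square difference, in log2, over the 6 differences of a genotype from the WT of its cohort, among 20643 genes, with a prior count of 2. Cd9 was followed most closely by Hcls1 (0.0673), Cd63 by Npc2 (0.0717), which encodes a lysosomal cholesterol carrier, and Lpl by Man2b1 (0.0886), which encodes a lysosomal mannosidase. Igf1 was nearest to Adgre1 (0.120), the gene of the macrophage antigen F4/80. Gpnmb was nearest to Cd14 (0.207), a co-receptor for lipopolysaccharide, Lgals3 to Apobec1 (0.219) and Spp1 to Ptprc (0.260), the gene of CD45. Clec7a had Hcar2 (0.871) as its nearest gene, and Cst7 and Itgax both had Olfr111 (2.37 and 1.36), the largest distances of the 10. The distance is not scaled to the size of a gene's change, and these genes changed most. Their differences in the Zbp1 cohort also rest on a WT mean that includes WT 1. Within the set, Cst7 was closer to Itgax (1.06) than to any gene outside it.

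The 4 RIP libraries are labelled as 5xFAD and WT hippocampus, with 1 library per group and thus no test. They held 9444018 counts in the 5xFAD input, 8911548 in the WT input, 6808879 in the 5xFAD ZBP1 immunoprecipitate (IP) and 5742746 in the WT IP. Their levels differed from those of the hippocampal libraries, and RIP totals include repeat families, so the scales are not alike. The shifts went both ways. Itgax was at 6.96 CPM in the WT input, against 0.165 to 0.386 CPM in hippocampal WT of the Ripk1 cohort. Clec7a was at 1.68 CPM in that input, against 0.563 to 0.772 CPM. The glial genes Apoe and Csf1r were lower. Apoe was at 2.96 CPM in the 5xFAD input, against 2078 to 2675 CPM in hippocampal 5xFAD of the Ripk1 cohort. Csf1r was at 5.19 CPM, against 224 to 234 CPM. Whether the tissue differs was not tested. Snap25, a neuronal gene named after its values were seen, was at 2.75 CPM in the 5xFAD input and 4.26 CPM in the WT input, against 1505 to 2211 CPM in the 24 hippocampal libraries. Thy1 was at 119.8 CPM in the 5xFAD input, against 1.46 CPM in the WT input (1131 against 13 counts), while the hippocampal libraries without the transgenes held 513 to 662 CPM. The input ratios compare single libraries, and their difference from the hippocampal fold changes was not tested. The 10 genes summed to 346 counts in the 5xFAD input, against 313 in the WT input. The ratio of their CPM was 1.04 (95% interval 0.893 to 1.22, counting error only), beside a median of 1.03 over 21673 genes and repeat families, and 0 of 10 genes had an interval off 1. Cst7 had 18 counts in the 5xFAD input, against 9 in the WT input (ratio 1.89, 0.805 to 4.77). Itgax had 55 counts in the 5xFAD input, against 62 in the WT input (0.837, 0.571 to 1.22).

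In both inputs the 10 genes ran between 1.01 and 7.09 CPM. In the IP over the input, the 10 genes summed to a ratio of 0.818 in 5xFAD (204 against 346 counts, 0.684 to 0.97505), beside a median of 0.765 over all entries. In WT the sum gave 1.16 (234 against 313 counts, 0.9751 to 1.38), beside a median of 0.887. Spp1 was the gene with an interval above 1, in WT (24 counts in the IP, against 19 in the input, ratio 1.96, 1.03 to 3.78), and in 5xFAD its ratio was 1.07 (0.534 to 2.11).

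**Figure D5:**
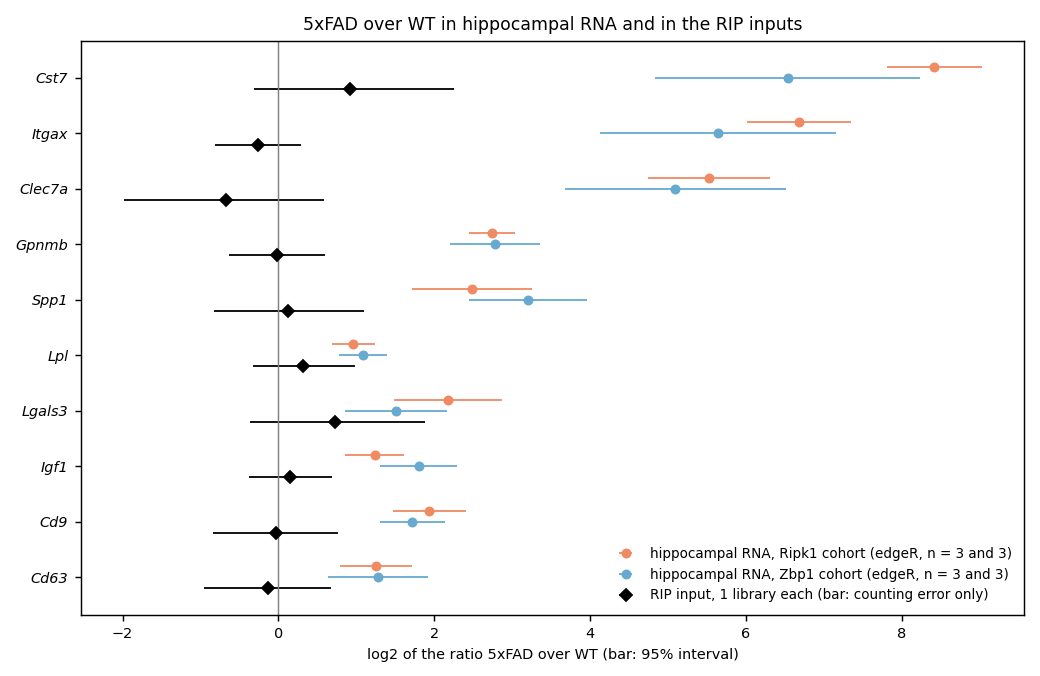
Log2 of the ratio 5xFAD over WT with 95% intervals in hippocampal RNA of both cohorts and in the RIP inputs. The input ratios lie between 0.629 (Clec7a) and 1.89 (Cst7) on the linear scale, with intervals that cover counting error between single libraries, and the hippocampal estimates, with intervals over replicate libraries, are above 0 for all 10 genes.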

How the data were processed

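The authors' count tables, as deposited, hold raw gene counts of 24 hippocampal polyA libraries and 4 RIP libraries. The submitters' processing notes name HISAT2, DESeq2 1.42.1 and edgeR 4.0.16 with both mm10 (GRCm38) and mm39 (GRCm39), so no coordinates of the files were used. The authors' deposited tables of comparisons give log2 fold changes and adjusted p-values. How strand was counted is not given in the sources used here. Of 55487 gene IDs, 55141 had a symbol.

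The counts were analysed in R 4.3.3 with edgeR 4.0.16 (limma 3.58.1). Each cohort was fitted on its 12 libraries with filterByExpr, TMM and 1 mean per genotype, and quasi-likelihood p-values were adjusted by Benjamini-Hochberg over all genes tested, threshold 0.05. SE is the log2 fold change over the square root of F. Differences between cohorts were fitted on 24 libraries. Alternatives were DESeq2 1.42.0, RLE factors, no filter, CPM of at least 1 in 3 libraries, the 2 groups alone, a replicate block, Thy1 as covariate and each library left out. The joint removal of WT 1 and 5xFAD 3, and the difference of mutation effects between cohorts, were added after seeing the data. The fit was tested on simulated data. RIP intervals are exact and cover counting error only.

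The 10 genes, the gene lists and the naming rule (the 10 genes, up to 4 per list by size of change in 5xFAD against WT of the Ripk1 cohort, Csf1r, Trem2, Tyrobp, Apoe, Thy1, Zbp1 and Ripk1, and the nearest gene by likeness) were chosen with earlier results of these data known. A gene of the shared microglial list is not reported here, and every value of that list was computed without it.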

Additional observations from a re-analysis of the deposited data

How the results depend on the processing

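Over the alternatives of single genes, 2019 values kept direction and side of the threshold, 62 reversed, 35 newly passed and 32 no longer passed, and the 10 genes called higher in 5xFAD against WT were again 10 with DESeq2, without a filter and with the replicate block in both cohorts. In the Zbp1 cohort they were 8 on the 2 groups alone (Lgals3 at an adjusted p of 0.0591 and Cd63 at 0.170), 9 without WT 1 and 5xFAD 3 together and 8 to 10 with 1 library left out, and in the Ripk1 cohort 10 throughout. Ripk1 D138N 5xFAD against Ripk1 D138N gave 8 to 10 with 1 library left out. For Zbp1 KO 5xFAD against 5xFAD the genes called lower, 0 with all libraries, were 3 with DESeq2, 7 without a filter (437 of all genes called lower), 2 with the replicate block (40 of all genes), 4 without WT 1 and 5xFAD 3 together, and 0 to 2 with 1 library left out. For the fits with libraries left out, calls over all genes are not given, so those counts are not a result about the 10 genes. Same-numbered libraries correlated over 0.1 in 5 of 18 pairs (Ripk1, -0.22 to 0.24) and 6 of 18 (Zbp1, -0.11 to 0.40). Differently numbered libraries were not correlated, so whether the numbers pair the libraries cannot be decided. Without a filter 3 genes were called lower in Zbp1 KO against WT, 1 in its interaction, 1 higher in the cohort difference of the 5xFAD effect and 4 in that of the mutation effect, where DESeq2 called 1 and leaving out 1 library gave 0 to 1. Calls over all genes in these fits are not given here, so these counts are not a result about the 10 genes. Zbp1 KO 5xFAD against Zbp1 KO ran from 5 to 9. In Ripk1 D138N 5xFAD against 5xFAD, Spp1 (-0.000571) was 0.00405 with DESeq2, 0.00351 with RLE factors, 0.00542 without a filter, 0.0148 with the replicate block, 0.0027 on the 2 groups alone and 0.0495 with the Thy1 covariate, which also gave 0.16 for Lpl and -0.26 for Igf1. The block turned the Ripk1 D138N interaction of Clec7a to 0.0145 and the cohort difference of Gpnmb to 0.0222. Without both libraries the Zbp1 KO interaction was -0.63 for Cst7 and -0.64 for Itgax. The cause of these changes was not tested. Leaving out 1 library, Ripk1 D138N 5xFAD against 5xFAD ran from -0.0827 to 0.30 for Igf1, -0.12 to 0.15 for Spp1 and -0.19 to 0.0645 for Lpl. Ripk1 D138N against WT ran from -1.15 to 0.34 for Clec7a, -0.90 to 0.0257 for Spp1, -0.14 to 0.27 for Cd9, -0.11 to 0.0696 for Igf1 and -0.20 to 0.0743 for Gpnmb. Its interaction ran from -0.0637 to 0.32 for Igf1, -0.43 to 1.07 for Clec7a, -0.55 to 0.25 for Itgax and -0.0302 to 0.90 for Spp1. The Zbp1 KO interaction ran from -0.34 to 6.36 for Cst7 and -0.46 to 1.90 for Itgax, and Zbp1 KO against WT from -0.68 to 0.16 for Cd63 and -0.12 to 0.0170 for Lpl. The cohort difference of the 5xFAD effect ran from -0.61 to 0.24 for Cd63, -0.30 to 0.20 for Gpnmb, -0.24 to 0.0725 for Lpl, -0.17 to 2.65 for Cst7, -0.66 to 1.68 for Itgax, -0.91 to 0.95 for Clec7a and -0.10 to 0.38 for Cd9. Low counts limit Cst7, Itgax and Clec7a outside carriers and every gene of the RIP libraries.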

Other observations

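Of 6 astrocyte markers, 3 rose and 1 fell in the Ripk1 cohort and 2 rose in the Zbp1 cohort, by edgeR in 5xFAD against WT. Aqp4, the water channel of astrocyte endfeet, gave 0.84 ± 0.13 and 1.11 ± 0.13 (log2 fold change, SE). The other to rise in the Zbp1 cohort was the glutamate transporter Slc1a3 (0.35 ± 0.0852), named here after its values were seen. In the Ripk1 cohort Aldh1l1 (0.30) and Aldoc (0.27) rose, and Slc1a2, the main glutamate transporter, fell by 0.71 in the Ripk1 cohort. Of 6 interneuron markers, 2 fell in the Ripk1 cohort, Gad1 (-0.65 ± 0.13) and Gad2 (-0.94 ± 0.22), which encode the enzymes that make GABA, and 0 passed in the Zbp1 cohort. Of 7 markers of pyramidal and granule neurons, 1 fell in each cohort, Wfs1 (-0.56 ± 0.15) in the Ripk1 cohort and Snap25 (-0.35 ± 0.0796), a protein of synaptic vesicle fusion that was named after its values were seen, in the Zbp1 cohort. Of 5 markers of oligodendrocyte precursors, 1 fell, Pdgfra (-0.48 ± 0.12), in the Ripk1 cohort. Differences between the cohorts in these genes were not tested.

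Of 8 tested regulators of the MiT family and lipid metabolism, 2 rose in the Ripk1 cohort and 0 passed in the Zbp1 cohort. They were Tfeb (0.69 ± 0.18), a master regulator of lysosomal genes, and Bhlhe41 (0.60 ± 0.11), a transcription repressor. Markers of endothelial and mural cells (7), fibroblasts (5) and choroid plexus (5) gave 0 calls by edgeR in either cohort, and the summed choroid plexus markers ran from 208 to 7302 CPM over the libraries, and their part in the results was not tested. In the RIP libraries Apoe stood at 11.2 CPM in the 5xFAD IP, against 2.96 CPM in the 5xFAD input, and at 10.4 CPM in the WT IP, against 2.58 CPM in the WT input.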
